A study of Mus musculus with 30 samples.

Results

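The 10 genes described here, Mpeg1, Csf1r, Adgre1, Cd68, Lyz2, Mrc1, Coro1a, C1qa, C1qb and C1qc, mark macrophages or encode the chains of complement C1q. They were chosen by symbol from the 36103 genes of the count table by a rule that uses no measured value, although earlier results of these data were known, and each symbol matched 1 gene. RNA came from 2 skeletal muscles, the gastrocnemius and the diaphragm, and from heart and liver of male Mtm1-/y mice, a constitutive knockout of the X-linked Mtm1 gene of myotubularin that models myotubular myopathy, and of their wild-type (WT) littermates, all aged 5 weeks and on a pure 129Pas background. There were 4 libraries for each genotype from gastrocnemius and heart, 4 WT and 3 Mtm1-/y (replicates 1, 2 and 4) from diaphragm and 3 WT and 4 Mtm1-/y from liver, in all 30 libraries with 24873817 to 44289343 read counts each.

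Macrophages are phagocytes found in every organ, where they clear dead cells and debris, and in injured skeletal muscle monocytes from the blood add to the resident population. Their survival depends on Csf1r, the receptor for the growth factors Csf1 and Il34. C1q, which starts the classical complement cascade when it binds antibody or dying cells, is assembled from the products of C1qa, C1qb and C1qc, and unlike most complement proteins it is made mainly by macrophages rather than by hepatocytes. In the liver the resident macrophages are called Kupffer cells.

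The 3 C1q genes lie side by side on the minus strand of chromosome 4 (mm10), C1qb at chr4:136880129-136886187, C1qc at chr4:136889804-136893065 and C1qa at chr4:136895917-136898803. Mpeg1, which encodes a pore-forming protein of phagocytes, lies on chromosome 19, Adgre1 on chromosome 17, Cd68 on chromosome 11, Mrc1 on chromosome 2 and Coro1a on chromosome 7. Csf1r overlaps Hmgxb3 and Coro1a overlaps Bola2 on the opposite strand, and the libraries keep the strand. Lyz2 has a near-identical neighbor on chromosome 10, Lyz1, and since the study counted uniquely aligned reads, those that fit both genes are left out of both counts.

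The factor PU.1, encoded by Spi1, binds purine-rich sites with the core GAGGAA in myeloid promoters, and that core (GAGGAA, or TTCCTC on the other strand) was searched in the RefSeq promoter windows of GRCm38.p6, from 250 bases before to 50 after each start. The windows of 7 of the 10 genes were at hand, with 2 windows for Coro1a and 1 for each other gene, and 4 of these 8 windows, of 4 genes, held the core, against 28.3% of all 32851 windows. The stretches that hold it before the start are shown for those 4 genes, which include both C1q chains with a window. Each of the 10 genes rose in the gastrocnemius of Mtm1-/y mice. Mpeg1, Coro1a and Lyz2, whose windows lack it, rose by 2.63, 1.92 and 1.87 on the log2 scale, and Cd68, C1qb, C1qc and Mrc1, whose windows hold it, by 2.33, 1.26, 1.04 and 0.49. The core is in capitals, and each sequence reads along its gene's strand from chr4:136886201-136886300 (C1qb, minus), chr4:136893066-136893164 (C1qc, minus), chr11:69666321-69666420 (Cd68, minus) and chr2:14229214-14229391 (Mrc1, plus).
C1qb: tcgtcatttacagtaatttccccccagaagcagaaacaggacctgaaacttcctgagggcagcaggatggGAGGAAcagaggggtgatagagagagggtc
C1qc: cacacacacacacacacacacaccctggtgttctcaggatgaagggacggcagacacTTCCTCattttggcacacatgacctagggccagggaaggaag
Cd68: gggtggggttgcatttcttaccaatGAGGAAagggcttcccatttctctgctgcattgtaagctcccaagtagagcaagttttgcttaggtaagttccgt
Mrc1: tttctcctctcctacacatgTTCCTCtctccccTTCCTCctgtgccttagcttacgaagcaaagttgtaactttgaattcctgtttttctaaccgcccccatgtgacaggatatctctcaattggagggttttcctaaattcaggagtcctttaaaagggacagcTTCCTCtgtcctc
A match is a run of letters and not a measured site of binding. The windows of Lyz2, Mpeg1 and Coro1a held no such run.

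Levels are given as CPM (counts relative to the size of the library) after TMM scaling over all 30 libraries, listed in the order of the replicate numbers. The fold changes compare Mtm1-/y with WT in the libraries of 1 tissue, and a rise or a fall is stated where edgeR's quasi-likelihood test gave an adjusted p under 0.05 over all genes tested. The paper gives as many mice for each group as there are libraries, so p-values weigh a difference against the spread between mice of a group. The labels do not say whether the same number in different tissues is the same mouse. Mtm1 itself was lower in each Mtm1-/y library than in each WT library of its tissue. The log2 fold changes were -2.07 (gastrocnemius), -2.26 (diaphragm), -2.59 (heart) and -1.60 (liver). That in the liver missed the threshold in edgeR (adjusted p = 0.365), which called none of the 14305 genes tested there. DESeq2 did call Mtm1 in the liver (adjusted p = 1.23e-06). In the diaphragm the hepatocyte gene Alb ranged from 251 to 28295 CPM, against at most 86.4 CPM in the gastrocnemius and the heart, and WT diaphragm replicate 2 had a summed level of 13 T and NK cell markers of 87.8 CPM, against 4.38 to 9.59 CPM in the other 6 diaphragms. In the liver, Mtm1-/y replicate 2 was the lowest library for each of the 10 genes, so results are also given without it.

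**Figure D1:**
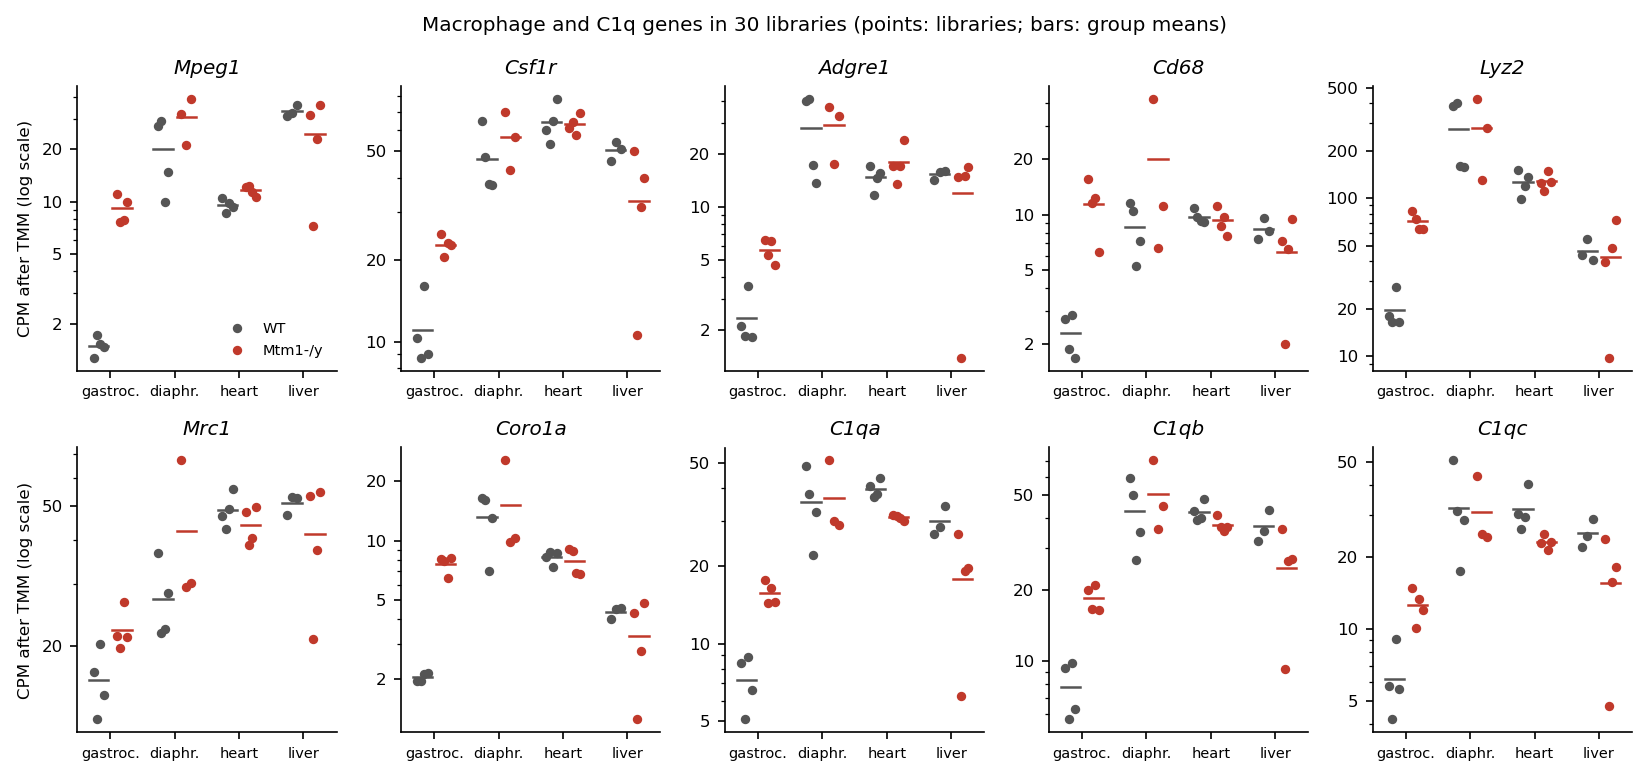
Level of each of the 10 genes in the 30 libraries, in CPM after TMM scaling on a log axis, by tissue and genotype. Points are libraries and short bars are group means of 3 or 4 libraries. The WT gastrocnemius libraries lie lowest among the WT groups for each gene, and in the gastrocnemius the red Mtm1-/y points lie above the gray WT points for 9 of the 10 genes.

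In WT mice each of the 10 genes had its lowest mean in the gastrocnemius. Compared with that muscle, 10 of 10 genes were higher in the diaphragm (30.6% of the 17725 genes tested were higher there), 10 of 10 in the heart (32.6%) and 10 of 10 in the liver (37.4%), with log2 differences from 0.74 to 4.40 and adjusted p of at most 0.00426 (edgeR on the 15 WT libraries). The smallest of these was that of Mrc1 in the diaphragm (log2 difference 0.74, SE 0.18) and the largest that of Mpeg1 in the liver (4.40, SE 0.31). The other 3 tissues differed less from each other. Between heart and diaphragm 5 of the 10 genes differed (51.7% of all genes did), between liver and diaphragm 5 (76.1%), and between liver and heart 3 (76.4%). In bulk RNA, fewer macrophages and less of these transcripts per macrophage cannot be told apart.

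The order of the tissues was not the same for each gene. Lyz2, lysozyme M of macrophages and neutrophils, was at 275 ± 134 CPM in WT diaphragm (SD, n = 4), 126 ± 21.9 CPM in heart (n = 4), 46.6 ± 7.63 CPM in liver (n = 3) and 19.6 ± 5.37 CPM in gastrocnemius (n = 4), and each neighboring pair in this order differed. Coro1a, the coronin of the leukocyte actin skeleton, followed the same order at 13.1 ± 4.35, 8.23 ± 0.618, 4.36 ± 0.289 and 2.04 ± 0.0931 CPM, and each of its neighbors differed too. For Mpeg1 the liver had the highest level, with 33.2 ± 2.57 CPM in liver, 20.2 ± 9.33 in diaphragm, 9.59 ± 0.789 in heart and 1.495 ± 0.185 in gastrocnemius, again with each neighbor apart. Lyz2 was therefore higher in heart than in liver and Mpeg1 lower (log2 liver minus heart -1.48, SE 0.34, and 1.75, SE 0.28).

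For the other genes the upper places were shared. Csf1r was at 64.0 ± 10.5 CPM in heart, 50.5 ± 3.99 in liver and 47.0 ± 12.8 in diaphragm, and no neighbor among these 3 passed the test. The same held for Cd68, a lysosomal glycoprotein of phagocytes (9.74 ± 0.821 in heart, 8.62 ± 2.89 in diaphragm, 8.38 ± 1.12 in liver). C1qa was at 39.9 ± 3.04 CPM in heart, 35.3 ± 11.1 in diaphragm and 29.8 ± 3.96 in liver, and C1qb and C1qc likewise gave no difference between neighbors among these tissues. Adgre1, an adhesion receptor used to stain mouse macrophages, had its highest mean in diaphragm (27.9 ± 14.5 CPM). It did not differ detectably between liver (15.3 ± 0.972) and heart (14.7 ± 2.29). Its WT diaphragms were at 39.9, 40.9, 17.3 and 13.7 CPM, with replicates 3 and 4 near the heart range (11.6 to 17.1 CPM). Replicates 1 and 2 were also the highest WT diaphragms for Lyz2 and Mpeg1. The part of liver RNA in these diaphragm levels was not tested. Mrc1, the mannose receptor of resident and repair-type macrophages, was at 50.8 ± 3.35 CPM in liver and 48.5 ± 5.41 in heart, above 27.2 ± 6.96 in diaphragm. Of the 30 neighboring pairs, 18 passed and 12 did not. The upper places of Csf1r, Adgre1, Mrc1, C1qb and C1qc changed without TMM, with library totals as the only scale, and the gastrocnemius stayed last for the 10 genes. That scaling moved the median of all genes to 0.59 (diaphragm minus gastrocnemius), 0.67 (heart minus gastrocnemius), -0.57 (liver minus diaphragm) and -0.67 (liver minus heart), with 10790 genes higher and 1517 lower in diaphragm than in gastrocnemius (5430 and 4215 with TMM), 10373 and 2498 in heart (5774 and 5094), 3731 and 9589 in liver against diaphragm (6296 and 7189) and 4011 and 9816 in liver against heart (6308 and 7233).

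Compared per kilobase of exon, C1qa and C1qb were close to each other and above C1qc in each WT group. This depends on the length used, the union of annotated exons, of 1040 (C1qa), 1088 (C1qb) and 1931 bases (C1qc). The transcripts made need not have these lengths. By counts alone the WT group medians of C1qa per C1qc were 1.18 to 1.31. Of the summed per-kilobase level of the 3 chains, C1qa made up 37.9% to 40.9% (group means), C1qb 41.3% to 44.9% and C1qc 17.2% to 18.4%. The group means of a share lay a few percentage points apart at most, although the summed levels differed several-fold between gastrocnemius and heart.

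In the gastrocnemius the macrophage and C1q genes rose together in Mtm1-/y mice. Of the 10 genes, 10 rose, where 14.1% of the 15456 genes tested rose. In 9 of them the log2 fold change was also over 1, which held for 4.84% of all genes. Their median log2 fold change was 1.28, against 0.02 over all genes tested. The sum of the 10 went from 59.8 to 102 CPM in the WT libraries to 180 to 223 CPM in the Mtm1-/y libraries.

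Mpeg1 had the largest rise. It was at 1.27, 1.72, 1.52 and 1.47 CPM in WT gastrocnemius and at 11.1, 7.68, 7.84 and 10.0 CPM in Mtm1-/y. The lowest Mtm1-/y library lay far above the highest WT library, and the log2 fold change was 2.63 (SE 0.17, edgeR adjusted p = 3.14e-05). Cd68 went from 2.72, 1.88, 2.85 and 1.68 CPM to 15.6, 11.6, 12.3 and 6.25 CPM, with no overlap but with 1 Mtm1-/y library well below the others (log2 fold change 2.33, SE 0.29, edgeR adjusted p = 0.000509). Coro1a, which T cells and B cells express as well, was tight in WT at 1.964, 1.958, 2.11 and 2.13 CPM and reached 8.05, 7.91, 6.47 and 8.20 CPM in Mtm1-/y. Its log2 fold change was 1.92 (SE 0.12, edgeR adjusted p = 3.14e-05).

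Lyz2 was at 18.01, 16.4, 27.6 and 16.6 CPM in WT and at 83.1, 74.1, 64.0 and 64.3 CPM in Mtm1-/y. WT replicate 3 was the highest WT library and still below each Mtm1-/y library, and the log2 fold change was 1.87 (SE 0.17, edgeR adjusted p = 0.000156). Its neighbor Lyz1 rose too (log2 fold change 1.82, SE 0.19). Adgre1 went from 2.12, 1.84, 3.53 and 1.82 CPM to 6.47, 5.35, 6.41 and 4.65 CPM (log2 fold change 1.31, SE 0.23, edgeR adjusted p = 0.00278), again with WT replicate 3 on top of its group. Csf1r went from 10.3, 8.71, 15.95 and 8.99 CPM to 24.8, 20.4, 23.0 and 22.8 CPM. For Csf1r, too, the groups did not overlap (log2 fold change 1.06, SE 0.18, edgeR adjusted p = 0.00226).

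The 3 C1q genes rose by linear fold changes of 2.18 (C1qa), 2.39 (C1qb) and 2.05 (C1qc). C1qa was at 8.40, 5.08, 8.88 and 6.58 CPM in WT and at 17.6, 14.3, 16.4 and 14.5 CPM in Mtm1-/y, a log2 fold change of 1.13 (SE 0.17, edgeR adjusted p = 0.00115). C1qb was at 9.34, 5.68, 9.86 and 6.26 CPM in WT and at 19.9, 16.6, 21.0 and 16.4 CPM in Mtm1-/y (1.26, SE 0.18, 0.00114). C1qc was at 5.80, 4.20, 9.14 and 5.60 CPM in WT and at 14.8, 10.1, 13.4 and 12.0 CPM in Mtm1-/y (1.04, SE 0.22, 0.00658). The highest WT library stayed below the lowest Mtm1-/y library for each chain, by the smallest margin for C1qc.

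Mrc1 moved least. It was at 16.8, 12.4, 20.2 and 14.5 CPM in WT and at 21.4, 19.7, 26.6 and 21.2 CPM in Mtm1-/y, so that WT replicate 3 lay above 1 Mtm1-/y library and this was the only 1 of the 10 genes whose groups overlapped. Among all genes tested, 13.8% had each Mtm1-/y library above each WT library. The log2 fold change of Mrc1 was 0.49 (SE 0.15, edgeR adjusted p = 0.0392), and 6 of the 8 fits that left out 1 library (each but those without WT replicate 3 or Mtm1-/y replicate 2), the fit with no filter on low counts and the fit of all 30 libraries lost the call (adjusted p from 0.0513 to 0.213). Mpeg1 counts per Mrc1 count were 0.0754 to 0.139 in WT and 0.294 to 0.520 in Mtm1-/y. With log2 fold changes from 0.49 to 2.63, the 10 genes did not rise by a common factor. Of the 45 pairs among them, 29 had ratios that did not overlap between the genotypes (the share over all pairs of genes was not computed).

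**Figure D2:**
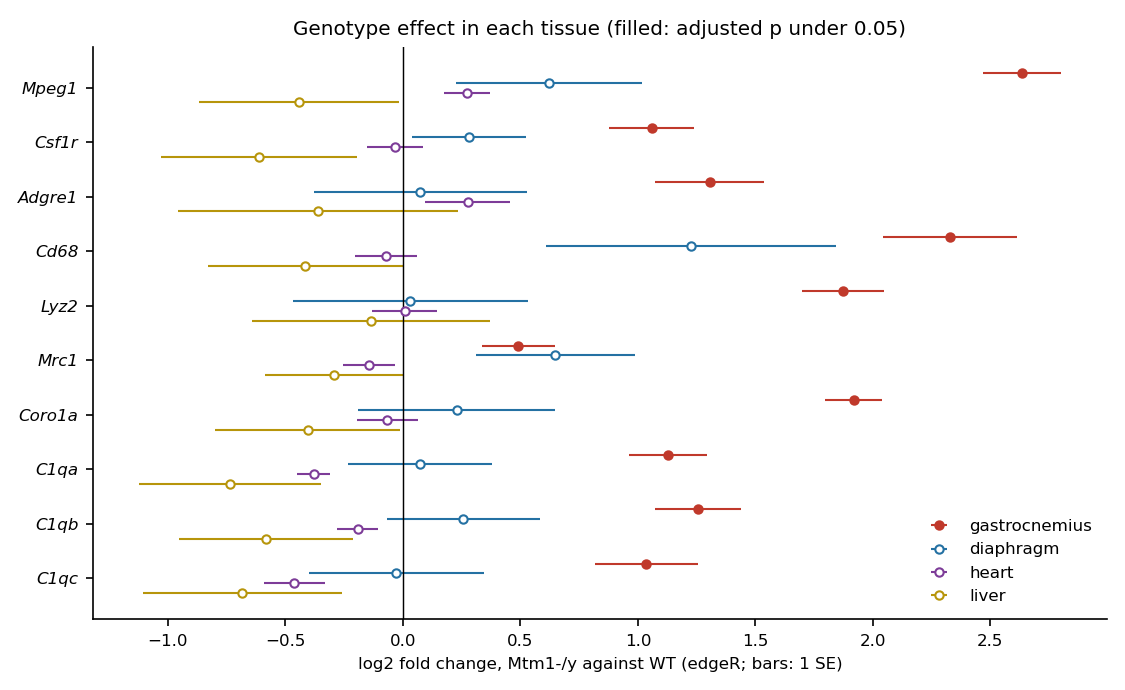
Log2 fold change of the 10 genes between Mtm1-/y and WT in each tissue, with bars of 1 SE from edgeR. Filled points passed an adjusted p of 0.05, which holds for the 10 gastrocnemius values (0.49 to 2.63), and for none in the diaphragm, heart or liver.

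Other cell types moved in the same muscle. The counts of called genes in this and the following lists stand against 14.1% of all genes that rose and 14.9% that fell. The summed level of 6 skeletal muscle fiber markers fell from 161309 to 194326 CPM in WT to 105251 to 115847 CPM in Mtm1-/y gastrocnemius, 3 of 6 fibroblast markers rose (the collagen Col3a1 by 0.72, SE 0.13) and so did 5 of 6 white adipocyte markers (Adipoq by 1.495, SE 0.36). Their part in the result was not tested. Of the 6 fiber markers 4 fell, among them the fast myosin Myh4 (log2 fold change -1.002, SE 0.15), and 2 rose, among them Myh1 (1.08, SE 0.16). When counts were scaled by library totals alone, the median log2 fold change of all genes moved from 0.02 to 0.35, 7647 genes rose and 647 fell (2173 and 2306 with TMM), and the 10 genes rose by 0.82 (Mrc1) to 2.97 (Mpeg1). Of 3 tested B cell markers 1 fell and 2 were not called, around a median of -0.01. The heavy chain gene Ighm fell from 59.3 to 83.4 CPM to 5.35 to 8.82 CPM (log2 fold change -3.48, SE 0.17).

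Genes around the receptor Csf1r were read in a list of its ligands and of myeloid regulators. Of 15, 7 rose and none fell. Both ligands stayed short of the threshold, Csf1 with a log2 fold change of 0.43 (SE 0.16, edgeR adjusted p = 0.0702) and Il34 with -0.05 (SE 0.17). Those that rose included the transcription factors Spi1 (1.68, SE 0.26) and Cebpa (1.18, SE 0.17), the adaptor Tyrobp (1.62, SE 0.25) and the phosphatase Ptpn6 (1.43, SE 0.19). Cebpa is also made by adipocytes.

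Receptors for engulfment and for antibody rose in 12 of 15 cases. The largest were the integrin Itgax (log2 fold change 3.18, SE 0.37), which dendritic cells share, and the glucan receptor Clec7a (3.17, SE 0.30), both below 0.22 CPM in each WT library. The endotoxin receptors Cd14 (1.81, SE 0.21) and Tlr4 (1.36, SE 0.17) rose as well. Of 12 other pan-macrophage markers, 12 rose, among them the pan-leukocyte phosphatase Ptprc (1.96, SE 0.17) and the chemokine receptor Cx3cr1 (2.57, SE 0.31). Of 8 lysosomal genes, 6 rose, led by the cathepsin Ctss (2.33, SE 0.16) and by Laptm5 (1.76, SE 0.13), with the protease Lgmn (1.02, SE 0.12) and the cathepsin Ctsz (0.68, SE 0.09) behind.

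The monocyte markers that could be tested were 3 of 8, and 2 rose, the chemokine receptor Ccr2 (log2 fold change 2.64, SE 0.18) and the proteoglycan Vcan (1.04, SE 0.22), which fibroblasts also make. Of 8 genes of lipid-handling and repair macrophages 6 rose, including Trem2 (2.01, SE 0.37), Lgals3 (2.01, SE 0.30), Spp1 (1.66, SE 0.38) and Retnla (1.30, SE 0.22). Of 8 markers of resident macrophages, by contrast, 2 rose and 2 fell. Pf4 (0.99, SE 0.22) and F13a1 (0.82, SE 0.25) were up, Cbr2 (-0.84, SE 0.16) and Timd4 (-1.02, SE 0.32) were down, and Timd4 was low at 0.320 to 0.681 CPM in WT. The median log2 fold change of this list was 0.32, below the 1.56 of the pan-macrophage list, and the difference between the lists was not tested.

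Of 7 tested markers of dendritic cells and MHC class II, which macrophages share, 6 rose, with H2-Ab1 (2.56, SE 0.16), H2-Aa (2.48, SE 0.18), Cd74 (2.46, SE 0.15) and H2-Eb1 (2.34, SE 0.16) in front. The tested marker of neutrophils (Lcn2, -0.67, SE 0.42), that of T and NK cells (Cd247, -0.45, SE 0.42) and the 5 mast cell markers (Kit -0.22, SE 0.31) gave no call, and 12 of 13 markers each of neutrophils and of T and NK cells were too low to test. The 5 erythroid markers gave no call either (Hbb-bs -0.82, SE 0.32). Of 5 endothelial markers, Cdh5 (-0.55, SE 0.13) and Tek (-0.44, SE 0.11) fell. Of 5 tested sinusoidal endothelial markers, Fcgr2b rose (1.69, SE 0.23) and Stab2 fell (-1.50, SE 0.20), and Fcgr2b is also a receptor of macrophages. Of 7 tested hepatocyte markers, Cyp2e1 rose and Ahsg fell, but 6 of the 7 had a negative log2 fold change, around a median of -1.96. Of 2 tested cardiomyocyte markers Tnnt2 rose (1.67, SE 0.26). Of the 15 tested paralogs of the 10 genes, 5 rose, among them the coronin Coro2a (1.03, SE 0.26) and the mannose receptor relative Mrc2 (0.88, SE 0.16).

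Other complement genes rose in part, to be read against the 14.1% of all genes that rose and the 14.9% that fell. Of 8 tested genes of the classical and lectin pathways 3 rose, the C1 proteases C1ra (log2 fold change 0.64, SE 0.10) and C1s1 (0.35, SE 0.08), and C3 (0.67, SE 0.21), the component on which the pathways converge. Of 3 tested genes of the alternative and terminal pathways, properdin, Cfp (0.70, SE 0.10), and factor D, Cfd (1.64, SE 0.46), rose, the latter also an adipocyte gene. Among 7 tested inhibitors 2 rose, Cd55 (0.77, SE 0.12) and Serping1 (0.55, SE 0.14), which blocks the C1 proteases, and 2 fell, Vtn (-0.44, SE 0.07) and Cr1l (-0.18, SE 0.06). The call of Cr1l was lost without any 1 library but WT replicate 1 (edgeR adjusted p from 0.0464 to 0.115), and with library totals as the scale its value was 0.16. Of 9 tested receptors and binders of complement 5 rose, including the anaphylatoxin receptors C3ar1 (1.40, SE 0.23) and C5ar1 (1.12, SE 0.25) and the chains Itgam (1.502, SE 0.27) and Itgb2 (1.65, SE 0.21) of complement receptor CR3. Some genes stand in more than 1 list.

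**Figure D3:**
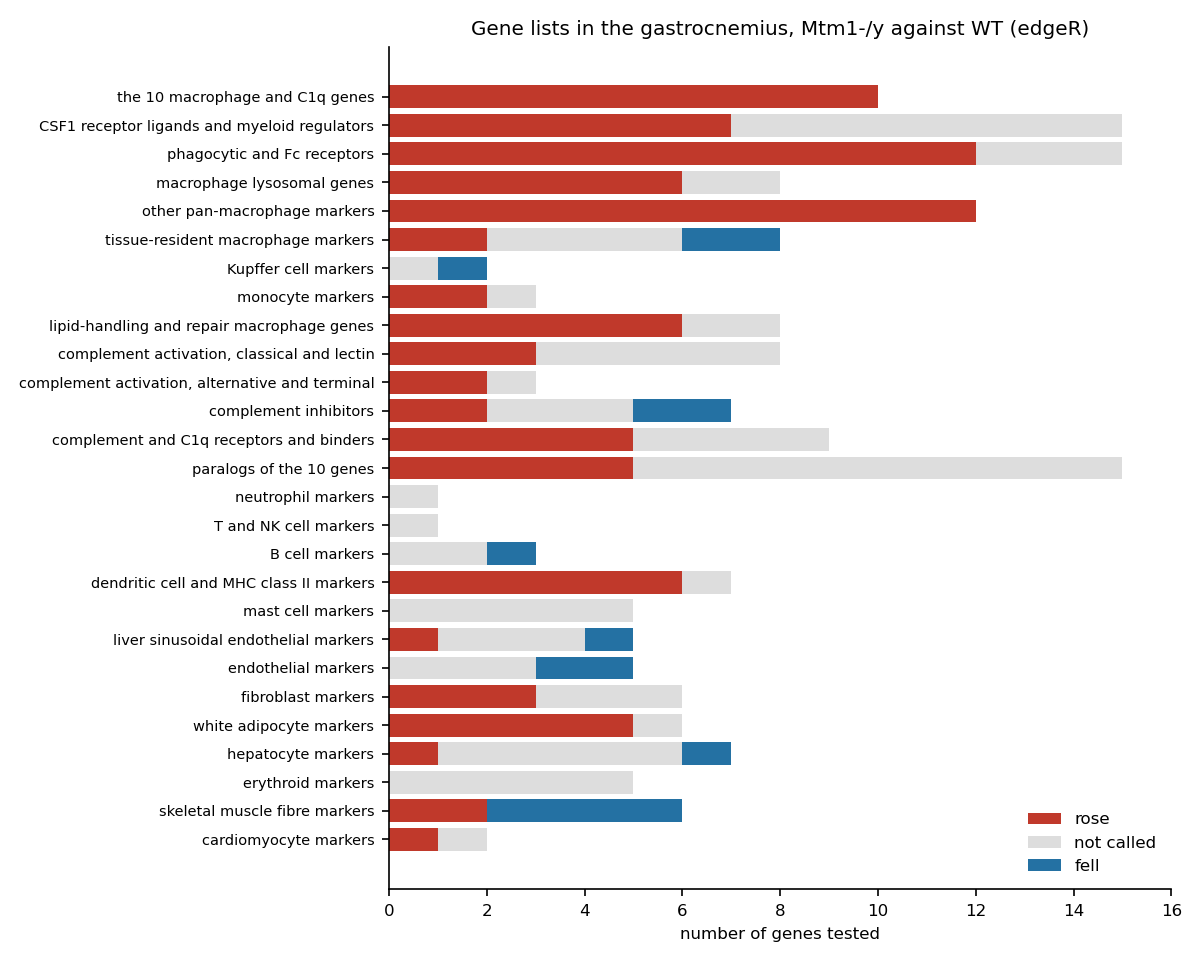
Number of genes tested in each list in the gastrocnemius, split into those that rose (red), were not called (gray) or fell (blue) in Mtm1-/y against WT by edgeR. All 10 macrophage and C1q genes and 12 of 12 other pan-macrophage markers rose, whereas the resident macrophage markers split into 2 that rose and 2 that fell.

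In the diaphragm none of the 10 genes passed the test. In the same comparison 0.0119% of the 16796 genes tested passed, and at an unadjusted p under 0.05 none of the 10 genes did, against 10.8% of all genes. DESeq2 called 0 of the 10 and 1.41% of the genes it tested. The spread was wide in both genotypes. Lyz2 was at 382, 399, 161 and 158 CPM in WT and at 424, 130 and 277 CPM in Mtm1-/y replicates 1, 2 and 4, and the log2 fold change was 0.03 (SE 0.50). The log2 fold changes of the 10 genes lay between -0.03 for C1qc and 1.23 for Cd68, and the groups overlapped for each of them, where 4.41% of all genes had each Mtm1-/y library above each WT library and 5.53% had each below.

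The largest value, that of Cd68, rested on Mtm1-/y replicate 1. Cd68 was at 11.6, 10.4, 5.27 and 7.23 CPM in WT and at 42.2, 6.60 and 11.1 CPM in Mtm1-/y. The log2 fold change was 1.23 (SE 0.62) and fell to 0.07 without that library. Mrc1 showed the same library on top, with 36.7, 21.7, 22.3 and 28.3 CPM in WT and 67.2, 29.3 and 30.2 CPM in Mtm1-/y, and its log2 fold change went from 0.65 (SE 0.34) to 0.16 without it. Mpeg1, at 27.1, 29.1, 9.93 and 14.8 CPM in WT and 31.8, 21.1 and 38.9 CPM in Mtm1-/y, had a log2 fold change of 0.62 (SE 0.40).

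Liver RNA differed between the diaphragm libraries. Alb was at 22770, 15524, 251 and 16548 CPM in WT and at 1449, 28295 and 480 CPM in Mtm1-/y. The Kupffer cell gene Clec4f broadly followed it, at 25.2, 19.2, 0.753 and 15.4 CPM in WT and 2.58, 26.5 and 0.965 CPM in Mtm1-/y, which is up to 23.1% of the mean of WT liver. The sum of the 10 genes was 737, 684, 327 and 369 CPM in WT, in the same order of libraries as Clec4f. In Mtm1-/y it was 862, 348 and 555 CPM, highest in replicate 1, where Clec4f was low, and lowest in replicate 2, where Clec4f was highest. A fit of the diaphragm with Alb as a covariate called 0 of the 10 genes. The part of liver RNA in the spread of the 10 genes was not tested further. Coro1a in WT replicate 2, the library with T cell markers, was 15.9 CPM, between the 7.001 and 16.5 CPM of the other WT diaphragms.

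**Figure D4:**
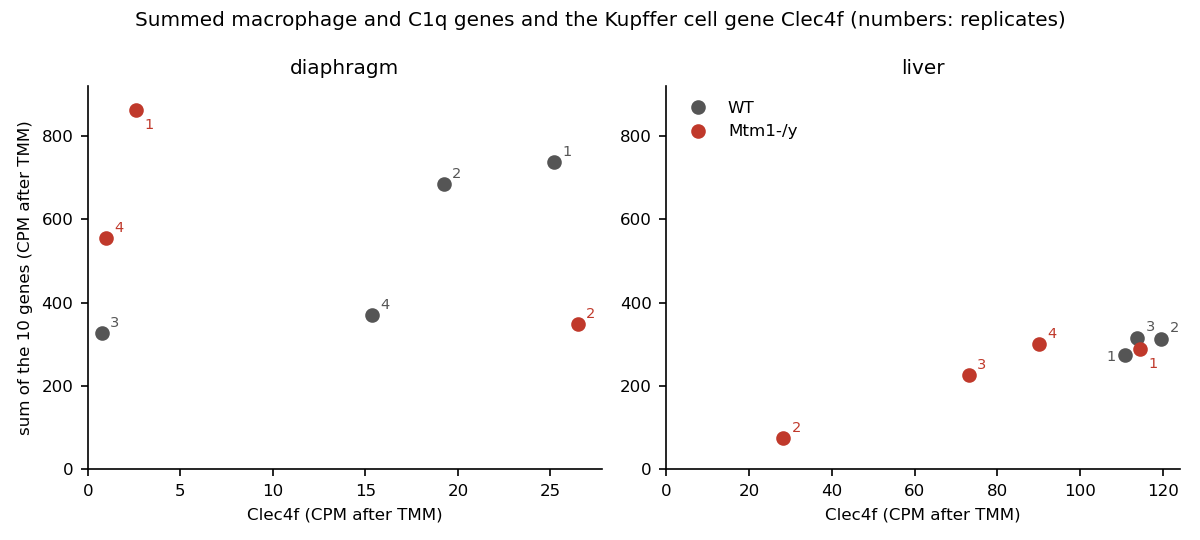
Summed level of the 10 genes against the level of the Kupffer cell gene Clec4f, both in CPM after TMM scaling, in the 7 diaphragm and the 7 liver libraries, with replicate numbers. In the liver, Mtm1-/y replicate 2 is lowest on both axes (28.3 and 73.5 CPM), and in the diaphragm the WT libraries have the same order on both axes, whereas the Mtm1-/y library with the highest sum (862 CPM) has little Clec4f (2.58 CPM).

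In the heart edgeR called none of the 10 genes, where it called 0.00656% of the 15238 genes tested. At an unadjusted p under 0.05 there were 3, against 8.88% of all genes, and they did not point the same way. Mpeg1 was at 10.5, 8.66, 9.81 and 9.34 CPM in WT and at 12.2, 12.3, 11.4 and 10.7 CPM in Mtm1-/y, with each Mtm1-/y library above each WT library by a small margin (log2 fold change 0.27, SE 0.10, edgeR adjusted p = 0.546). C1qa was at 40.8, 37.1, 38.1 and 43.8 CPM in WT and at 31.6, 31.3, 30.7 and 30.0 CPM in Mtm1-/y, also without overlap but lower (-0.38, SE 0.07, unadjusted p = 0.000452, edgeR adjusted p = 0.353). C1qc was at 30.4, 26.3, 29.6 and 40.5 CPM in WT and at 23.0, 25.0, 21.4 and 23.1 CPM in Mtm1-/y, lower without overlap (-0.46, SE 0.13, edgeR adjusted p = 0.546).

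DESeq2 called C1qa in the heart (adjusted p = 0.0131, where it called 0.288% of the genes it tested) and none of the other 9. C1qb, at 43.2, 39.4, 40.02 and 48.2 CPM in WT and 41.3, 36.6, 35.6 and 36.8 CPM in Mtm1-/y, overlapped between the genotypes (-0.19, SE 0.09). The other 6 genes had log2 fold changes from -0.15 (Mrc1) to 0.28 (Adgre1), with SE from 0.11 to 0.18. In the heart 2.15% of all genes had each Mtm1-/y library above each WT library and 2.03% had each below, against 1 and 2 of the 10 genes. Of the 8 resident macrophage markers 8 had a negative log2 fold change in the heart (median -0.40) and none was called.

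In the liver none of the 10 genes passed, where 0% of the 14305 genes tested did and 4.24% had an unadjusted p under 0.05 (none of the 10 did). DESeq2 called 0.0914% of the genes it tested and none of the 10. The 10 log2 fold changes were negative, from -0.14 (Lyz2) to -0.74 (C1qa), with SE from 0.29 to 0.60. Mtm1-/y replicate 2 stood apart. Csf1r was at 46.2, 54.1 and 51.1 CPM in WT and at 50.4, 10.5, 31.2 and 39.9 CPM in Mtm1-/y, and Adgre1 was at 14.2, 15.8 and 15.97 CPM in WT and at 14.8, 1.39, 14.9 and 16.7 CPM. In that library Adgre1 rested on 30 counts, and Coro1a, at 1.25 CPM, on 27.

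Of the Kupffer cell genes, Clec4f, Vsig4 and Timd4 were low in the same library. Clec4f was at 111, 120 and 114 CPM in WT liver and at 114, 28.3, 73.0 and 90.1 CPM in Mtm1-/y, whereas Alb was 142367 CPM there, inside the range of the other livers. Timd4, which Kupffer cells also express, was at 2.31 CPM there, against 8.95 to 13.2 CPM in the other 6 livers. Vsig4 was at 4.07 CPM there, against 12.9 to 22.2 CPM. The 7 genes of the Kupffer cell list summed to 333 to 506 CPM in Mtm1-/y liver and to 401 to 532 CPM in WT liver. Without Mtm1-/y replicate 2 the log2 fold changes of the 10 genes ran from -0.45 (C1qa) to 0.19 (Lyz2), and none was called. C1qa stayed lowest of the 10. It was at 26.7, 28.5 and 34.3 CPM in WT and at 26.6, 6.25, 19.0 and 19.6 CPM in Mtm1-/y, the only 1 of the 10 genes without overlap in the liver (the closest pair was 26.6 and 26.7 CPM), where 3.33% of all genes had each Mtm1-/y library below each WT library.

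The genotype effect itself was then compared between tissues. Between heart and gastrocnemius it differed for 10 of the 10 genes, each lower in the heart, where 9.89% of the 16627 genes tested were called in that direction. The differences of the log2 fold changes ranged from -0.62 for Mrc1 (SE 0.20, edgeR adjusted p = 0.0401) to -2.39 for Cd68 (SE 0.33, edgeR adjusted p = 0.000412). The calls of 2 genes were close to the threshold. That of Mrc1 held only in the fits without gastrocnemius WT replicate 3 or Mtm1-/y replicate 2, or without heart WT replicate 2 or Mtm1-/y replicate 1 or 4, among the fits that left out 1 library. That of Adgre1 (-1.01, SE 0.30, edgeR adjusted p = 0.0289) was lost without gastrocnemius WT replicate 1, 2 or 4 or Mtm1-/y replicate 1 or 3, and without heart WT replicate 1 or Mtm1-/y replicate 1 or 3 (adjusted p up to 0.0634). Mpeg1, with a log2 fold change of 0.27 in the heart, still differed by -2.34 (SE 0.18). With library totals as the scale the median difference of all genes was -0.44, and 405 genes were higher and 6577 lower (1652 and 1645 with TMM). Between liver and gastrocnemius 5 genes were called, each lower in the liver, against 2.71% of the 17179 genes tested. These were Mpeg1 (-3.05, SE 0.50), Cd68 (-2.71, SE 0.54), Coro1a (-2.29, SE 0.41), C1qa (-1.83, SE 0.45) and C1qb (-1.81, SE 0.44), and the number was 9 without Mtm1-/y liver replicate 2, 3 without WT liver replicate 2 or 3, WT gastrocnemius replicate 2 or 4 or Mtm1-/y gastrocnemius replicate 1, and 2 with the replicate number as a block. Library totals gave 135 genes higher and 3447 lower there (624 and 466 with TMM), around a median of -0.40.

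Between diaphragm and gastrocnemius the effect of none of the 10 genes differed past the threshold in edgeR, which called 0.28% of the 17509 genes tested. At an unadjusted p under 0.05, 8 genes had a smaller effect in the diaphragm (7.02% of all genes did), and DESeq2 called 3 (0.473% of the genes it tested, in that direction). Library totals gave 14 genes higher and 259 lower (20 and 29 with TMM), around a median of -0.31. The largest differences were those of Mpeg1 (-2.02, SE 0.45, edgeR adjusted p = 0.0905), Lyz2 (-1.85, SE 0.55) and Coro1a (-1.70, SE 0.45), and Mrc1 was at 0.15 (SE 0.38). Between heart and diaphragm edgeR called 0 of the 10 genes and 0.00573% of the 17466 genes tested, 1 of the 10 (Mrc1) had an unadjusted p under 0.05 against 10.6% of all genes, and DESeq2 called 0 of the 10 and 0.65% of the genes it tested. These comparisons share libraries and are not independent of each other.

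Of the ratios among the C1q chains, those of C1qa and C1qb to C1qc overlapped between the genotypes in each of the 4 tissues, and that of C1qa to C1qb did so only in the diaphragm. C1qa counts per C1qb count, a ratio taken within each library and so free of the scaling, were 0.900, 0.894, 0.901 and 1.05 in WT gastrocnemius and 0.885, 0.860, 0.779 and 0.888 in Mtm1-/y. In the heart they were 0.946, 0.941, 0.951 and 0.908 in WT and 0.765, 0.855, 0.863 and 0.814 in Mtm1-/y. In the liver they were 0.833, 0.802 and 0.788 in WT and 0.739, 0.672, 0.723 and 0.724 in Mtm1-/y. In these 3 tissues each Mtm1-/y library lay below each WT library, with the closest pair in the gastrocnemius (0.888 and 0.894). In the diaphragm the ratios overlapped, at 0.824, 0.758, 0.828 and 0.923 in WT and 0.731, 0.826 and 0.640 in Mtm1-/y.

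This was the only 1 of the 45 pairs of genes that separated the genotypes in 3 tissues. Being singled out after its values were seen, it was given no test. In the gastrocnemius and the heart, the ratio of Mpeg1 to C1qa separated the genotypes as well and was higher in Mtm1-/y (0.213 to 0.258 in WT heart and 0.357 to 0.393 in Mtm1-/y). Of the 45 pairs, 29 were separated in the gastrocnemius, 9 in heart, 4 in liver and none in diaphragm. No share over all pairs of genes was computed to set beside these counts, and the 45 pairs share genes. With so few libraries in a group some ratios separate by chance, so the counts are descriptions.

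**Figure D5:**
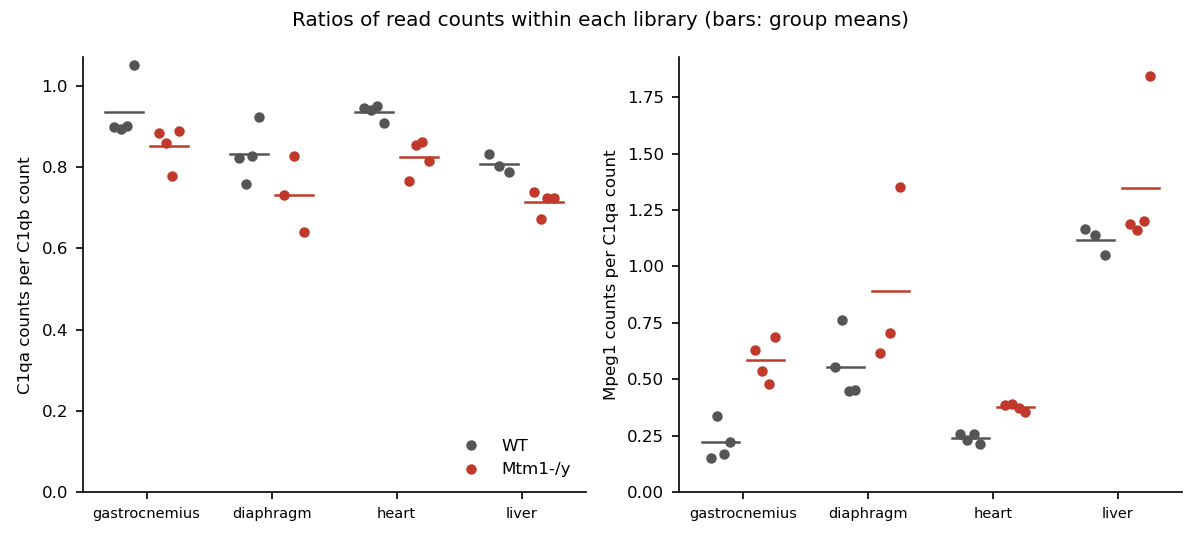
Counts of C1qa per count of C1qb (left) and of Mpeg1 per count of C1qa (right) in each library, by tissue and genotype, with bars at group means. The C1qa to C1qb ratio of each Mtm1-/y library is below that of each WT library in gastrocnemius, heart and liver (for example 0.765 to 0.863 against 0.908 to 0.951 in heart) but not in the diaphragm.

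Within groups, the 10 genes varied together to different degrees. After subtracting group means from log2 CPM, the median Pearson correlation over the 45 pairs was 0.96 in the liver (7 libraries), where 1 library set most of the spread, 0.81 in the diaphragm, 0.64 in the gastrocnemius and 0.32 in the heart. Among genes outside the 10, those with a pattern most like their mean over the 30 libraries, each library taken relative to its tissue, were Ctss (Pearson r = 0.966), Tyrobp (0.966), Nfam1 (0.961), Pld4 (0.960), Dock2 (0.955), Nckap1l (0.954), Laptm5 (0.951) and Arhgap9 (0.949), among 12152 genes. The libraries share their genotype groups, and the r values are descriptions. All 8 rose in the gastrocnemius (14.1% of all genes did), with log2 fold changes from 1.27 (Arhgap9) to 2.33 (Ctss). The pattern they were picked by holds the genotype difference of the gastrocnemius, so this rise follows largely from the choice. None was called in the other tissues, where edgeR called 0.0119% (diaphragm), 0.00656% (heart) and 0% (liver) of the genes tested.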

How the data were processed

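Deposited values are raw read counts per gene, which the authors made from single reads of stranded poly(A) libraries (TruSeq Stranded mRNA). Per the labels and methods they trimmed with cutadapt 1.10, aligned to mm10 with STAR 2.5.3a and counted with HTSeq 0.6.1p1 on Ensembl release 96. Library totals were 24873817 to 44289343, so counting error is small except below about 1 CPM.

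Computed here in R 4.3.3: genes were filtered at a count minimum of 10, scaled by TMM and tested with edgeR 4.0.16 (quasi-likelihood, Benjamini-Hochberg over all genes), each tissue alone, 2 tissues together for differences of effects, and the WT libraries together for tissues. DESeq2 1.42.0 and limma 3.58.1 (voom) were alternatives, with others given in the closing section. Scripts were tested on simulated data. Coordinates are GENCODE M21's, promoters RefSeq's. The 10 genes and the lists were chosen with earlier results of these data known, and 1 gene of the list of complement inhibitors is not reported here. Named are the 10 genes, Mtm1, per list up to 4 called genes of smallest p in the gastrocnemius (or the 2 most abundant), and the 8 genes most like the 10. Same-numbered WT and Mtm1-/y libraries did not deviate together (r from -0.578 to 0.404), so the numbers do not pair them.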

Additional observations from a re-analysis of the deposited data

Results flagged for a closer look

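Single libraries stood apart from the rest of their group in 3 of the 60 combinations of gene and group examined, those of the groups of 4 libraries. The measure was the gap to the nearest library relative to the range of the group, and chance gives about 1 in 20, or 3. Lyz2 was at 27.6 CPM in WT gastrocnemius replicate 3, the highest of its group. Coro1a was at 6.47 CPM in Mtm1-/y gastrocnemius replicate 3, the lowest of a tight group. Adgre1 was at 1.39 CPM in Mtm1-/y liver replicate 2, the library in which the other 9 genes were lowest as well. Groups of 3 libraries were not examined. Among them is Mtm1-/y diaphragm, where Cd68 was at 42.2 CPM in replicate 1, against 6.60 and 11.1 CPM in replicates 2 and 4.

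The genotype effect differed between heart and gastrocnemius for the 10 genes in the edgeR test of the difference itself. The difference of log2 fold changes (heart minus gastrocnemius) was -2.39 for Cd68, -2.34 for Mpeg1, -1.97 for Coro1a, -1.85 for Lyz2, -1.49 for C1qa, -1.48 for C1qc, -1.43 for C1qb, -1.08 for Csf1r, -1.01 for Adgre1 and -0.62 for Mrc1. It differed between liver and gastrocnemius for 5 genes, with values (liver minus gastrocnemius) of -3.05 for Mpeg1, -2.71 for Cd68, -2.29 for Coro1a, -1.83 for C1qa and -1.81 for C1qb. Both sets of differences use the same gastrocnemius libraries.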

How the results depend on the processing

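In the gastrocnemius 10 genes were called with size factors, library totals, DESeq2, voom and the replicate block, 9 with no filter (without Mrc1) and 8 in the fit of all 30 libraries (without Mrc1 and Adgre1, the latter at an adjusted p of 0.0559). For heart minus gastrocnemius, 9 were called with size factors and with no filter (without Mrc1) and 7 in the fit of all 30 libraries (without Mrc1, Adgre1 and Csf1r). Requiring a log2 value over 1 as well left 9 in both. Leaving out single libraries gave 9 to 10 called genes in the gastrocnemius, 8 to 10 for heart minus gastrocnemius, 0 to 2 for diaphragm minus gastrocnemius (2 without WT diaphragm replicate 3), 3 to 9 for liver minus gastrocnemius (9 without Mtm1-/y liver replicate 2, 3 without WT liver replicate 2 or 3, WT gastrocnemius replicate 2 or 4, or Mtm1-/y gastrocnemius replicate 1) and 41 to 45 of 60 WT tissue differences (43 in all). DESeq2 called 1 gene in the heart. Alb as a covariate gave 0 called genes in the diaphragm, for heart minus diaphragm and for diaphragm minus gastrocnemius. For diaphragm minus gastrocnemius library totals and voom called 1 and DESeq2 3. For liver minus gastrocnemius, called for 5 genes, library totals gave 9, DESeq2, voom and all 30 libraries 8, and the fit with the replicate number as a block 2. Same-numbered libraries of 2 tissues correlated weakly, in WT at 0.032 to 0.16 (heart with gastrocnemius), 0.0069 to 0.22 (heart with diaphragm), -0.093 to 0.23 (diaphragm with gastrocnemius) and -0.013 to 0.036 (liver with gastrocnemius), and in Mtm1-/y at -0.16 to 0.17 over the 4 pairs of tissues. Differently numbered WT libraries gave -0.13 to 0.041 (heart with gastrocnemius) and -0.26 to 0.15 (heart with diaphragm). No set of same-numbered pairs had each pair over 0.1, so the numbers were not taken as a pairing. These values do not settle whether a number stands for the same mouse across tissues. The block left the other counts of calls among the 10 genes as they were. Where depth is low, as for Adgre1 in Mtm1-/y liver replicate 2 (30 counts), counting error adds to the spread.

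Signs turned in the following cases. With library totals Kit became 0.11, Tpsb2 0.15 and Cr1l 0.16 in the gastrocnemius, C1qc 0.023 in the diaphragm, Lyz2 -0.056 in the heart and Mrc1 -0.11 for diaphragm minus gastrocnemius. In WT they gave 0.056 for C1qc and 0.070 for C1qb (heart minus diaphragm), -0.42 for Csf1r (liver minus diaphragm), and, for liver minus heart, -0.54 for Adgre1 and -0.53 for Mrc1 (adjusted p = 0.0381). The block gave, in the diaphragm, -0.011 for Adgre1, -0.11 for Coro1a, -0.12 for C1qa and -0.17 for Lyz2, and, in WT, 0.0088 for C1qb (heart minus diaphragm) and -0.12 for Adgre1 (liver minus heart). Voom gave 0.089 for C1qc in the diaphragm and 0.039 for Csf1r in the heart. Alb as a covariate gave 0.18 for C1qc in the diaphragm, -0.077 for Adgre1 (heart minus diaphragm) and -0.082 for Mrc1 (diaphragm minus gastrocnemius). All 30 libraries gave 0.0057 for Lyz2 (heart minus diaphragm). Size factors and DESeq2 gave 0.0097 and 0.012 for C1qc and 0.020 and 0.022 for C1qb (WT, heart minus diaphragm), and no filter -0.026 for Adgre1 and -0.018 for Mrc1 (WT, liver minus heart).

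Leaving out single libraries turned signs in 24 results. In the diaphragm Adgre1 ran from -0.15 to 0.32, C1qa from -0.23 to 0.27, C1qb from -0.042 to 0.46, C1qc from -0.34 to 0.29, Coro1a from -0.35 to 0.46 and Lyz2 from -0.40 to 0.36. In the heart Cd68 ran from -0.18 to 0.013, Coro1a from -0.14 to 0.0022, Csf1r from -0.12 to 0.079 and Lyz2 from -0.095 to 0.11, and in the liver Adgre1 from -0.54 to 0.0092 and Lyz2 from -0.50 to 0.19. For heart minus diaphragm Adgre1 ran from -0.032 to 0.44, Coro1a from -0.50 to 0.30 and Lyz2 from -0.34 to 0.42, and for diaphragm minus gastrocnemius Mrc1 from -0.35 to 0.36. In WT, heart minus diaphragm ran from -0.074 to 0.31 for C1qa, -0.25 to 0.13 for C1qb, -0.30 to 0.24 for C1qc and -0.082 to 0.29 for Cd68, liver minus diaphragm from -0.33 to 0.044 for Cd68 and -0.10 to 0.21 for Csf1r, and liver minus heart from -0.083 to 0.11 for Adgre1 and -0.032 to 0.12 for Mrc1. The cause was not tested.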

Other observations

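Outside the gastrocnemius, edgeR called none of the 73 genes named from the lists, and the values were as follows. In the diaphragm 73 were tested and 15 had an unadjusted p under 0.05 (10.8% of all genes did), with log2 fold changes from -2.51 (Cd3e) to 2.88 (Tnnt2) and a median of 0.05. In the heart 73 were tested and 18 had an unadjusted p under 0.05 (8.88% of all genes did), from -3.08 (Plin1) to 1.32 (Acta1) with a median of -0.13. In the liver 60 were tested and 2 had an unadjusted p under 0.05 (4.24% of all genes did), from -0.88 (H2-Ab1) to 3.34 (Myh1) with a median of -0.08.

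White adipocyte markers in the heart were lower in Mtm1-/y for 6 of 6 genes, with a median log2 fold change of -2.82 and summed levels of 29.9 to 111 CPM in WT and 4.70 to 12.0 CPM in Mtm1-/y, and the 6 had unadjusted p under 0.05 (against the 8.88% of all genes) and no call. In the same hearts 8 of 8 resident macrophage markers had negative values, 4 of them with an unadjusted p under 0.05 (against the same 8.88%). In the diaphragm 5 of 9 tested markers of dendritic cells and MHC class II had an unadjusted p under 0.05 (against the 10.8% of all genes), around a median of 0.92, and their summed level was 150 to 302 CPM in WT and 356 to 550 CPM in Mtm1-/y.

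The genes of liver cell types had these levels in the 7 diaphragm and the 7 liver libraries. Of the Kupffer cell list, Clec4f ranged from 0.753 to 26.5 CPM in diaphragm and from 28.3 to 120 CPM in liver, Vsig4 from 1.14 to 8.03 and 4.07 to 22.2, Marco from 0.837 to 11.5 and 2.59 to 32.1, Cd5l from 2.59 to 23.6 and 16.2 to 84.4, Spic from 0.0279 to 0.749 and 0.629 to 1.40, and Slc40a1 from 19.2 to 85.7 and 185 to 320. Timd4 was as high in diaphragm (3.96 to 14.4) as in liver (2.31 to 13.2). Of the sinusoidal endothelial list, Stab2 ranged from 2.87 to 33.8 and 88.6 to 118, Clec4g from 0.139 to 17.99 and 50.4 to 66.5, Oit3 from 0.223 to 13.6 and 17.8 to 39.3, Fcgr2b from 4.49 to 24.4 and 41.9 to 70.3, Dnase1l3 from 1.03 to 30.6 and 63.3 to 127, and Gpr182 from 1.501 to 16.1 and 21.9 to 47.8, whereas Lyve1 was higher in diaphragm (14.5 to 31.2) than in liver (4.02 to 9.02).

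Of the hepatocyte list, Alb ranged from 251 to 28295 CPM in diaphragm and from 111280 to 153563 CPM in liver, Apoa1 from 30.2 to 2745 and 9495 to 11462, Apoa2 from 32.7 to 2374 and 8098 to 11948, Ttr from 32.3 to 2670 and 10534 to 12412, Serpina1a from 4.30 to 300 and 1042 to 1705, Fgb from 17.6 to 1859 and 5944 to 9830, Ahsg from 35.5 to 4348 and 14150 to 20687, and Cyp2e1 from 45.0 to 1626 and 6873 to 14793.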
